A study of Mus musculus with 11 samples.

Results

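The subject is a set of 10 genes for the nuclear lamina and for the LINC complex, and where they lay relative to lamin B1 in mouse oligodendrocyte lineage cells. The rule takes them by gene name and uses no score, although the list was drawn up with earlier results of these data known. All 10 were found in the deposited table, in 12 of its 21534 gene regions, since Syne1 and Tmpo have 2 regions each. The study mapped lamin B1 contacts by DamID-seq, in which the bacterial DNA adenine methyltransferase Dam, fused to LMNB1, marks DNA near the lamina, and untethered Dam marks DNA that any free enzyme can reach. Cortical oligodendrocyte precursor cells of C57BL/6 mice at postnatal day 7 carried a lentiviral Dam-LMNB1 or Dam vector for 1 day and were then cultured for 72 hours. The differentiated group (OL) was kept in the labels' T3 medium and the precursor group (OPC) in the labels' PF medium, which is for proliferation. There were 3 Dam-LMNB1 libraries of OL (numbered 18, 19 and 20) and 3 of OPC (numbered 8, 9 and 10), each scored by the authors against a pool of Dam libraries from the same condition, 3 in OL and 2 in OPC. The labels name wild-type cells and list no other allele or agent. Nothing in the labels ties a library to a culture or an animal, and the p-values therefore cover only the spread among these 6 libraries, which may be technical.

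The nuclear lamina is a filament mesh under the inner nuclear membrane, built from A-type lamins (Lmna) and B-type lamins (Lmnb1 and Lmnb2). Membrane proteins such as the lamin B receptor (Lbr), the LEM-domain proteins LAP2 (Tmpo) and MAN1 (Lemd3) link it to chromatin. SUN proteins of the inner membrane (Sun1, Sun2) join nesprins of the outer membrane (Syne1, Syne2) to form the LINC complex, which couples the nucleus to the cytoskeleton. In people, duplication of LMNB1 causes a late-onset leukodystrophy, a disease of myelin, the membrane that oligodendrocytes make.

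Scores above 0 were taken to mean that Dam-LMNB1 methylated a gene and its flanks more than Dam did, and scores below 0 that it did so less. The log base is not stated, so differences are in score units and not folds. Read depth is unknown. A score averages over the cells of a culture, so contact in fewer cells and looser contact in every cell cannot be told apart. It is no measure of RNA, so neither the expression of these genes nor the labelled cell type could be checked. Over all regions the libraries' mean scores ran from −0.88 to −0.79 in OL and from −0.94 to −0.92 in OPC, and OL library 18 had the highest mean and the narrowest spread. Pearson's r across regions (no independent replicates) was 0.991 to 0.995 within a condition and 0.976 to 0.981 between conditions. The median score of all regions was −1.47 in OL and −1.54 in OPC.

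The sequences shown first are the 250 bases upstream of the annotated starts of Syne1, Syne2, Sun1 and Sun2 (RefSeq, GRCm38.p6), because the nesprin pair lay on opposite sides of 0 and the SUN pair moved in opposite directions. Each is written 5′ to 3′ on the strand of its gene. Capitals mark GATC, the sequence that Dam methylates, which reads the same on both strands. The Syne1 start at chr10:5550693-5550942 (minus strand) lies in the 5′ region of the gene and the one at chr10:5069064-5069313 (minus strand) in its 3′ region. The others are Syne2 at chr12:75818068-75818317 (plus strand), Sun1 at chr5:139200387-139200636 (plus strand) and Sun2 at chr15:79742537-79742786 (minus strand).
Syne1, 5′ start: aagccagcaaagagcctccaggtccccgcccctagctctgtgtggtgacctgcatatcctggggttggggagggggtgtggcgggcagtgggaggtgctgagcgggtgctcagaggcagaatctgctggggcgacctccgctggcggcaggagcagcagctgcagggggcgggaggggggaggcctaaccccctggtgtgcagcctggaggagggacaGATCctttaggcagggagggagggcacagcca
Syne1, 3′ start: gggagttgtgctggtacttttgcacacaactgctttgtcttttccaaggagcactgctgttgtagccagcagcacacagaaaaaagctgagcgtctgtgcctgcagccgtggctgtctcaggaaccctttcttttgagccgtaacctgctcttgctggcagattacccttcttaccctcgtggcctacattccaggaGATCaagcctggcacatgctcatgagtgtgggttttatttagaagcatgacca
Syne2: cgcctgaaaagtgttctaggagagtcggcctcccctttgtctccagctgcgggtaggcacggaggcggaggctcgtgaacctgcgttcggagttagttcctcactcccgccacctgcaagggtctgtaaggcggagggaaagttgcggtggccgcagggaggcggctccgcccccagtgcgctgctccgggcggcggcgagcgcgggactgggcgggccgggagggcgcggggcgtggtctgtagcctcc
Sun1: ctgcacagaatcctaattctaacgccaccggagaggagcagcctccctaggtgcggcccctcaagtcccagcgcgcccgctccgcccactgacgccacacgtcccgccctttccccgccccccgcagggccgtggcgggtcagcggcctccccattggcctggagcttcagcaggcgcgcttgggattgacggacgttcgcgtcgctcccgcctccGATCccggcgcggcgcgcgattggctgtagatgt
Sun2: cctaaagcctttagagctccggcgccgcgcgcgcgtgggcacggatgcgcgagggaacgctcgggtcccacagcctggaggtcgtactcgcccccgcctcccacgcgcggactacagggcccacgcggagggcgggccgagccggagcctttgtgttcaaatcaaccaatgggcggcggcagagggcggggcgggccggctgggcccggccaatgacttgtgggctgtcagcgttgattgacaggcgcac

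These Syne1 windows held few CG dinucleotides, 7 at the 5′ start and 4 at the 3′ start, with a GC share of 68.0% and 50.8%. Syne2, Sun1 and Sun2 had 26, 30 and 31 CG dinucleotides and GC shares of 70.0%, 70.0% and 70.8%. A GATC was present once in each of these Syne1 windows and once in that of Sun1, and in neither Syne2 nor Sun2. RefSeq also lists a start of Syne1 inside the 5′ region, whose window held no GATC, 2 CG dinucleotides and 38.8% GC, and a start of Sun1 whose window held 1 GATC, 1 CG dinucleotide and 43.6% GC, neither of them printed. RefSeq windows matched 9 of the 10 genes, all but Lmnb1. Of those 9, taking the first window listed for each, 7 held 10 or more CG dinucleotides (14 to 36), beside 50.4% of 17492 protein-coding genes. The exceptions were Syne1, with 7, and Lmna, whose window held 1. The windows of Lmna and Tmpo lay inside the annotated genes. No window of the outermost start was available for these genes, so their counts are those of inner starts. A GATC was found in 4 of the 9, beside 41.1% of protein-coding genes. These windows describe sequence only, since no score was given for so short a stretch.

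Apart from Syne1, the genes of the lamina and the LINC complex scored below 0 in both conditions, as did most regions of the genome-wide set. In OL, 9 of the 10 genes were below 0 and 1 was above (limma adjusted p under 0.05), beside 70.9% of all regions below and 25.9% above. In OPC the counts were also 9 below and 1 above, beside 71.4% and 25.5%. Where a gene has more than 1 region, counts use the widest. The median over the 10 genes was −2.02 in OL and −1.91 in OPC. No library of any member region lay on the other side of 0 from the rest.

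**Figure D1:**
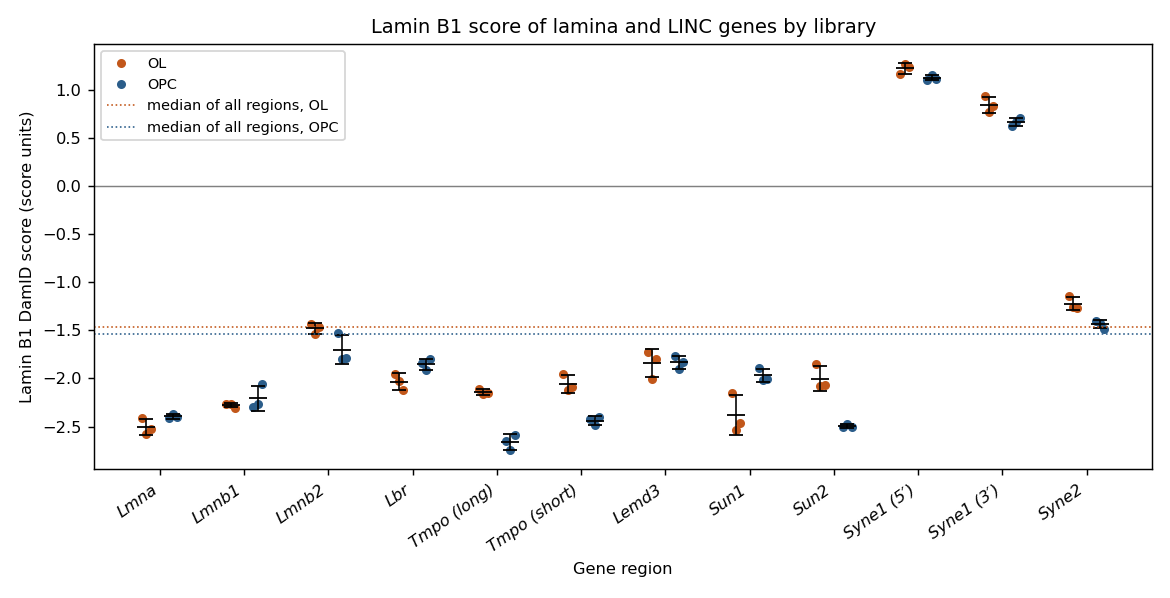
Lamin B1 DamID score (vertical axis, score units) of the 12 member regions, with OL libraries in orange to the left of OPC libraries in blue, black bars for the mean ± SD (n = 3) and dotted lines for the median of all regions. Both Syne1 regions lie above 0 in all 6 libraries and the other 10 regions lie below 0 in all of them.

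Among the lamins, Lmna, which encodes lamins A and C (chr3:88479147-88513352), had the lowest mean score of all members in OL. Its scores were −2.41, −2.57 and −2.53 in OL libraries 18, 19 and 20, and −2.41, −2.37 and −2.40 in OPC libraries 8, 9 and 10. The OL mean stood at percentile 5.15 of all regions and the OPC mean at percentile 14.1. The OL values all lay below the OPC values, though OL library 18 at −2.415 and OPC library 8 at −2.413 were nearly level. The mean difference of −0.11 ± 0.08 (SE) did not pass the test (limma adjusted p = 0.320). After scaling the libraries to 1 common mean and SD it was −0.25 and passed (limma adjusted p = 0.0205), as it did with quantile normalization but not with median centring.

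Lmnb1 encodes the protein that was fused to Dam, and its own region (chr18:56697812-56755424) lay far below 0. Scores were −2.26, −2.26 and −2.30 in OL libraries and −2.30, −2.27 and −2.05 in OPC libraries, with OPC library 10 the highest and the groups overlapping. The difference of −0.07 had a 95% interval of −0.28 to 0.14 (limma), and without OPC library 10 it was 0.01. The vector carried an LMNB1 sequence of its own, and the part of its reads in this score was not tested. The regions elsewhere with scores most like those of Lmnb1, by Euclidean distance over the 6 libraries, were Fam71f2, Aktip and Chsy1, at distances of 0.087, 0.129 and 0.138 score units.

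Lmnb2, the other B-type lamin gene (chr10:80899362-80928245), was less far below 0. It had −1.43, −1.54 and −1.46 in OL libraries and −1.53, −1.79 and −1.79 in OPC libraries. The highest OPC library, number 8, overlapped the OL range, and the difference of 0.22 ± 0.09 (SE) did not pass (limma adjusted p = 0.0983). Without OPC library 8 it was 0.31 and passed (limma adjusted p = 0.0390). Lmnb1 scored below Lmnb2 in every library, with a Lmnb1 minus Lmnb2 difference from −0.839 to −0.721 in OL and from −0.771 to −0.269 in OPC.

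Of the lamina-binding membrane proteins, Tmpo was the member with the largest difference between conditions. It encodes LAP2 proteins, whose isoforms bind lamins and the chromatin protein BAF. The longer of its regions (chr10:91158416-91181619) had −2.11, −2.16 and −2.15 in OL libraries, against −2.65, −2.74 and −2.59 in OPC libraries. The groups were well apart, and the score rose by 0.52 ± 0.08 (SE) in OL (limma adjusted p = 2.37e-03). The shorter region (chr10:91162931-91181619), which lies inside the longer one and is no separate evidence, had −1.95, −2.12 and −2.09 in OL libraries and −2.42, −2.48 and −2.40 in OPC libraries, a rise of 0.38 ± 0.09 (SE, limma adjusted p = 9.44e-03). Regions most like Tmpo in score were Tfdp1, Pih1d1 and Tor1b, at distances of 0.154, 0.154 and 0.156 score units.

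Lbr encodes an inner membrane receptor that binds B-type lamins and heterochromatin (chr1:181813314-181852401). It had −1.95, −2.02 and −2.12 in OL libraries and −1.84, −1.92 and −1.80 in OPC libraries. Each OL library lay below each OPC library, yet the difference of −0.18 ± 0.08 (SE) did not pass (limma adjusted p = 0.127). It was −0.30 with the libraries scaled to 1 common mean and SD (limma adjusted p = 0.0128), and it passed under all 3 scalings tried. Lemd3, which encodes MAN1, an inhibitor of SMAD signalling at the inner membrane (chr10:120921410-120989330), had −1.72, −2.01 and −1.80 in OL libraries and −1.77, −1.90 and −1.83 in OPC libraries. These overlapped fully, and the 95% interval of the difference ran from −0.22 to 0.21 (limma).

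The SUN genes moved in opposite directions. Sun2 (chr15:79722067-79752536) had −1.85, −2.08 and −2.07 in OL libraries, against −2.50, −2.47 and −2.50 in OPC libraries. Its score rose by 0.49 ± 0.09 (SE) in OL (limma adjusted p = 4.60e-03), with OL library 18 the highest. Sun1 (chr5:139190636-139251839) had −2.15, −2.54 and −2.46 in OL libraries, against −1.89, −2.02 and −2.001 in OPC libraries. Its score fell by 0.42 ± 0.11 (SE) in OL (limma adjusted p = 0.0200), and no OL library reached the OPC range. The Sun1 call was lost without OL library 19, OL library 20 or OPC library 8, with limma adjusted p of 0.0658, 0.0628 and 0.0616, whereas the Sun2 call held without any single library. Neither call held with a test that estimates the spread of each region from its own libraries alone, nor did those of the Tmpo regions. In the authors' deposited table the adjusted p of Sun2 was 0.112.

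The order of the pair differed between the conditions. Sun1 minus Sun2 within a library was −0.301, −0.455 and −0.391 in OL libraries 18, 19 and 20, and 0.613, 0.456 and 0.504 in OPC libraries 8, 9 and 10. Sun1 scored below Sun2 in every OL library and above it in every OPC library. A difference taken within a library leaves out any shift that a whole library shares. This contrast was chosen after the values were seen and is given with no test.

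The nesprin genes are by far the longest members, and they stood on opposite sides of 0. Syne1, for nesprin-1, spans 530.5 kb in the reference annotation and has a region at each end, with 130.2 kb of the gene between them in neither. The 5′ region (chr10:5334948-5560692) holds 40.7% of the gene and scored 1.16, 1.26 and 1.24 in OL libraries and 1.102, 1.15 and 1.11 in OPC libraries. The 3′ region (chr10:5018195-5204707) holds 34.8% of it and scored 0.94, 0.77 and 0.83 in OL libraries and 0.62, 0.67 and 0.71 in OPC libraries. Both lay above 0 in all 6 libraries, the 5′ region at percentile 84.8 in OL and 83.9 in OPC.

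Within each library the 5′ region of Syne1 scored above the 3′ region, by 0.225 to 0.496 in OL and by 0.406 to 0.484 in OPC. In both regions the OL libraries lay above the OPC libraries, but the differences of 0.10 ± 0.07 and 0.18 ± 0.07 (SE) did not pass (limma adjusted p = 0.268 at the 5′ end and 0.0823 at the 3′ end). Syne2, for nesprin-2 (chr12:75808317-76112928), has 1 region over the whole gene. It had −1.14, −1.26 and −1.27 in OL libraries and −1.40, −1.43 and −1.48 in OPC libraries. Each OL library lay above each OPC library, by a mean of 0.21 ± 0.08 (SE), short of the threshold (limma adjusted p = 0.0572). In the other limma fits tried, the adjusted p of Syne2 ran from 0.0469 (regions of at least 15000 bp) to 0.181. The region of Mir5101, which lies inside that of Syne2, rose by 0.54 (limma adjusted p = 8.23e-03). Syne1 exceeded Syne2 by 2.44 ± 0.12 in OL and 2.56 ± 0.05 in OPC (SD, n = 3), with the conditions overlapping.

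In order of level, the Syne1 5′ region, the Syne1 3′ region, Syne2 and Lmnb2 led in both conditions. In OL the ranges of Lemd3, Sun2, Lbr and the Tmpo regions each overlapped the next in that order, as did those of Lmnb1, Sun1 and Lmna at the bottom. In OPC the ranges of Lmnb2, Lemd3, Lbr and Sun1 each overlapped the next, followed by Lmnb1 apart from its neighbours. Lmna, the shorter Tmpo region and Sun2 then overlapped in turn, and the longer Tmpo region was lowest, apart from Sun2. Most of the middle order is thus within the spread between libraries.

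Across the 10 genes, 2 scored higher in OL (Tmpo and Sun2), 1 scored lower (Sun1) and 7 did not pass the test. Over all regions 23% were called higher and 10.9% lower, 33.9% in all, so the members' 3 calls of 10 are near that background. OL and OPC libraries did not overlap for 7 of the 10 genes, beside 48.9% of all regions. The median difference was 0.04 over the members and 0.10 over all regions. Of all calls 67.9% were higher in OL, and 50.5% were after scaling to 1 common mean and SD, where the median difference of all regions was 0.02. Tmpo and Sun2 rose and Sun1 fell under all 3 scalings tried. In the authors' deposited table no member region was under an adjusted p of 0.05, the lowest being 0.0627 for the longer Tmpo region. Of all regions, 676 (3.14%) were under an adjusted p of 0.05 in the authors' deposited table. Because the 3 scores of a condition were taken against the same pooled Dam libraries, variation between Dam libraries enters none of these tests.

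**Figure D2:**
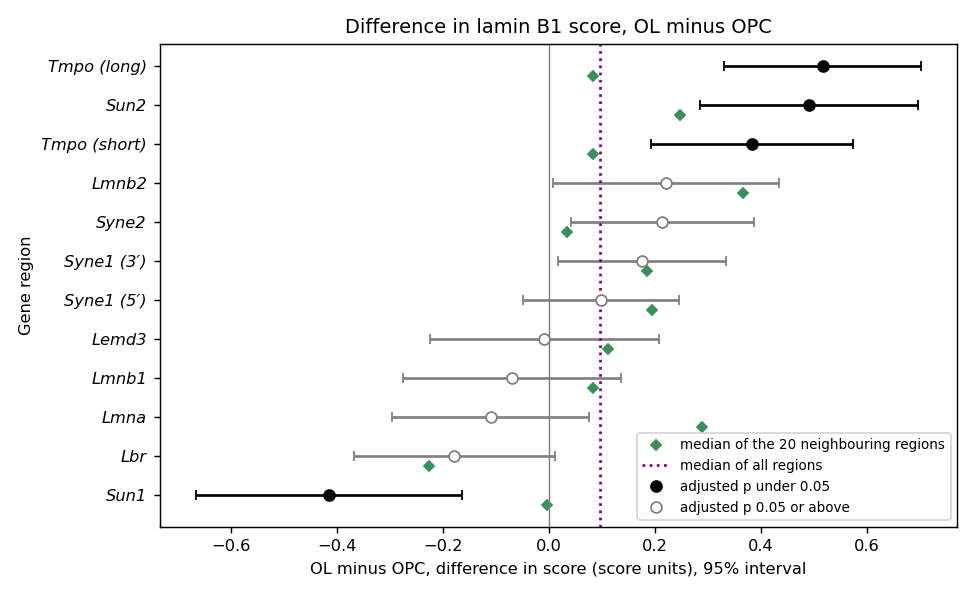
Difference in score (horizontal axis, OL minus OPC, score units) of the 12 member regions with 95% limma intervals, filled where the adjusted p was under 0.05, with diamonds for the median difference of the 20 neighbouring regions. Both Tmpo regions and Sun2 lie to the right, at 0.38 to 0.52, and Sun1 lies to the left at −0.42.

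Whether a member's level was that of a wider stretch was described from the 10 nearest non-overlapping regions on each side. Syne1 lay in a run of 6 consecutive regions above 0 in all 6 libraries, which spans 1149.8 kb of chromosome 10. The run holds Ccdc170, the oestrogen receptor gene Esr1 (1.69 in OL and 1.64 in OPC), both Syne1 regions, Myct1 and the neuropeptide gene Vip (1.46 in OL and 1.28 in OPC). It is bounded by Armt1 at −0.83 in OL and −1.13 in OPC, and by Fbxo5, an inhibitor of the anaphase-promoting complex, at −1.21 in OL and −2.07 in OPC. Over the 10 nearest regions on each side, the median was below 0 for both Syne1 regions. It was −0.29 in OL and −0.69 in OPC (5′ region), and −0.46 in OL and −0.82 in OPC (3′ region). For each, 8 of the 20 neighbours were above 0 in all 6 libraries, the other Syne1 region among them. Syne2 lay below 0, as did the median of its surroundings, which was −2.02 in OL and −1.80 in OPC. Its own means of −1.22 in OL and −1.44 in OPC were above that median.

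The lamin genes lay in different surroundings. All 20 neighbours of Lmna were below 0, from −2.96 to −1.70 in OL and from −3.17 to −1.89 in OPC, over 164.1 kb on one side and 269.6 kb on the other. The nearest region above 0 in all 6 libraries was Lrba, 1694 kb away. Lmnb1 had neighbours spread over 3243 kb on one side and 2658 kb on the other, and 5 of the 20 were above 0 in all 6 libraries. Their median was −1.81 in OL and −1.70 in OPC, above Lmnb1 itself. With 5 neighbours on each side the median over all 6 libraries was −2.06, in place of −1.82 with 10, beside −2.24 for Lmnb1.

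The level of Tmpo stood below that of its surroundings, at −2.14 in OL and −2.66 in OPC beside a median of −0.28 in OL and −0.61 in OPC over its neighbours. Next to it, Slc25a3, the mitochondrial phosphate carrier gene, had −2.70 in OL and −2.73 in OPC. Farther out on that side, and named after their values were seen, the apoptosome gene Apaf1 had −1.38 in OL and −1.99 in OPC and Anks1b had 0.22 in OL and −0.54 in OPC, rises of 0.62 and 0.77 (limma adjusted p = 9.16e-04 and 1.68e-04), beside 0.52 for Tmpo. Over the 20 neighbours the median difference was 0.08, and 7 were higher and 1 lower in OL, beside 23% and 10.9% of all regions. The tRNA regions that overlap Tmpo at its 5′ side, TRNA_Asp and TRNA_Trp, differed by 0.10 and −0.01 (limma adjusted p = 0.490 and 0.974).

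For Sun1 the neighbours had a median difference of −0.0044, with 2 higher and 3 lower, and these were split by side. Named after their values were seen, the 3 lower were Prkar1b, Fam20c and Gal3st4 (−0.40, −0.57 and −0.45), all on the 5′ side of Sun1. The 2 higher, Zfand2a and Ints1 (0.33 and 0.44), were on its 3′ side. The region adjacent to Sun1 on its 5′ side, Dnaaf5, had −2.10 in OL and −1.89 in OPC, and that on its 3′ side, Adap1, −1.69 in OL and −1.78 in OPC. Get4, which overlaps the 3′ side of Sun1, differed by −0.09 (limma adjusted p = 0.502). Around Sun2, 7 neighbours were higher and 13 were not called (median difference 0.25). Lmnb2 lay in a gene-dense stretch in which 16 of 20 neighbours were higher in OL and 4 were not called (median difference 0.37). Of the regions that overlap Lmnb2, Tmprss9 rose by 0.50 (limma adjusted p = 2.66e-03). Timm13 and Gadd45b, at 0.34 and 0.14, did not pass (limma adjusted p = 0.0805 and 0.274). Of the neighbours of Lbr 7 were lower and 13 not called, with a median difference of −0.23 close to its own −0.18. Of those of Lmna, itself at −0.11, 8 were higher and 12 not called, with a median of 0.29. These counts, each of 20 neighbours, stand beside 23% of all regions called higher and 10.9% called lower.

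**Figure D3:**
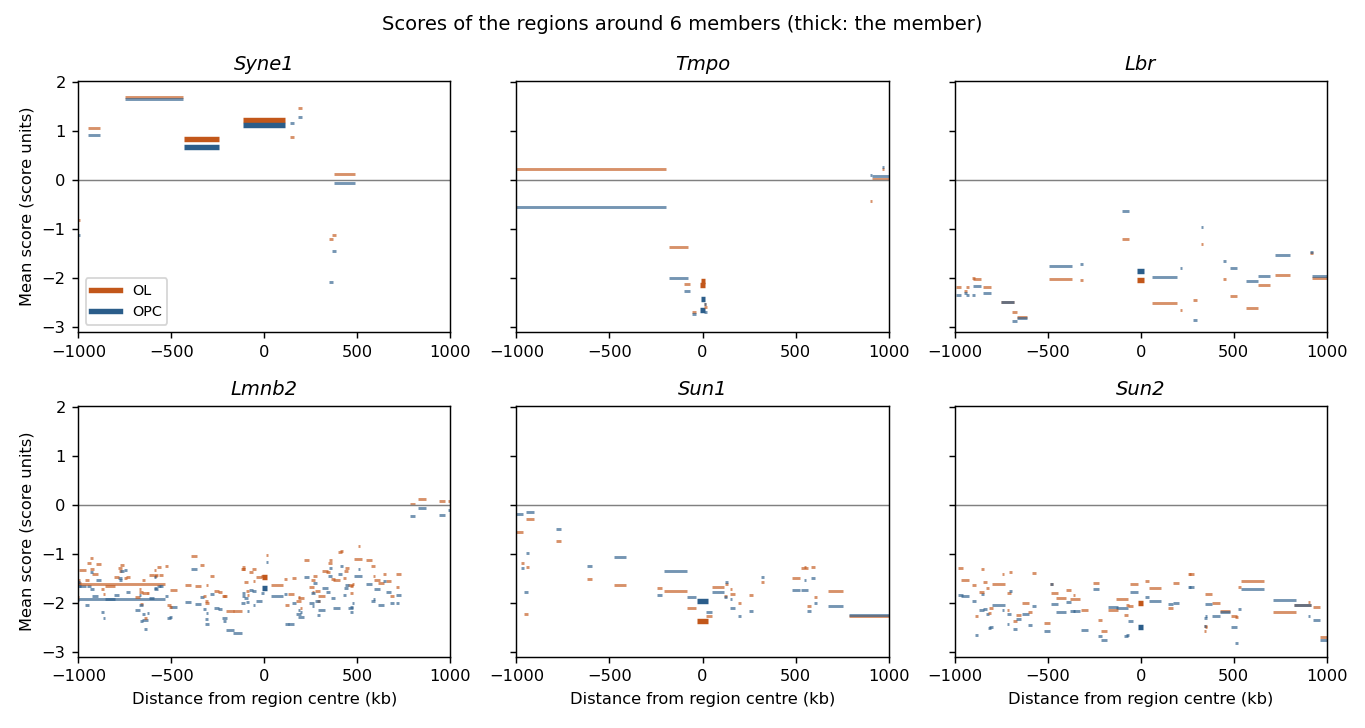
Mean score (vertical axis, score units) of the regions within 1000 kb of 6 members, by distance from the member's centre (horizontal axis, kb), with OL in orange, OPC in blue and thick bars for regions of the member. Syne1 lies in a stretch above 0, Tmpo in a narrow low stretch beside higher regions, and the neighbours of Lmnb2 lie mostly higher in OL.

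Another 57 genes of the nuclear envelope gave the context. In OL 52 of them were below 0 and 4 above (limma), beside 70.9% and 25.9% of all regions, and in OPC also 52 below and 4 above, beside 71.4% and 25.5%. Those above in both were Mlip, a lamin-interacting protein of muscle (1.47 ± 0.03 in OL and 1.24 ± 0.04 in OPC), the testis gene Sun3 (0.95 ± 0.22 in OL and 0.68 ± 0.05 in OPC), and the nucleoporin genes Tpr (0.29 ± 0.14 in OL and 0.40 ± 0.08 in OPC) and Nup37 (0.44 in OL and 0.22 in OPC), with SD and n = 3 each. Between conditions 20 of the 57 were higher and 2 lower, beside 23% and 10.9% of all regions, with a median difference of 0.22. The lower genes numbered 6, 5 and 4 under the 3 scalings (common mean and SD, quantile, median), beside 3261, 3278 and 3333 of all 21534 regions.

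Of 29 nucleoporin genes 12 were higher in OL and 1 was lower, beside 23% and 10.9% of all regions, with a median difference of 0.23 beside 0.10 over all regions. The leading rises were those of Nup205, Nup107 and Nup155, for scaffold parts of the pore. Nup205 had −0.81 ± 0.05 in OL and −1.58 ± 0.07 in OPC, a rise of 0.77 (limma adjusted p = 3.73e-04). Nup107 rose by 0.60 and Nup155 by 0.52 (limma adjusted p = 2.50e-03 and 5.20e-03). Nup153, a basket protein that binds lamins, had the lowest mean of the group, at −2.88 in OL and −3.13 in OPC. The 1 lower gene, named after its value was seen, was Ahctf1, for the chromatin-binding pore protein ELYS (−1.97 ± 0.11 in OL and −1.56 ± 0.10 in OPC, limma adjusted p = 9.72e-03).

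Of 16 further inner membrane and chromatin-linked genes 5 were higher and 1 lower, beside 23% and 10.9% of all regions. Banf1, for the protein BAF that LEM-domain proteins bind, rose by 0.54 (−2.45 in OL and −2.99 in OPC). The nurim gene Nrm rose by 0.50 and the torsin gene Tor1b by 0.48 (limma adjusted p = 3.28e-03 and 4.38e-03). The lower one, again named after its value was seen, was Tor1aip1, for the lamina-bound torsin activator LAP1 (−2.08 in OL and −1.84 in OPC, limma adjusted p = 0.0398). That call was lost without any 1 of the 6 libraries, with limma adjusted p from 0.0553 (without OL library 18) to 0.111 (without OPC library 10). The region of Tor1aip2, a gene of the same group, overlaps that of Tor1aip1 and differed by 0.07 (limma adjusted p = 0.531). Of 7 further LINC genes 3 were higher, Ccdc155 (the KASH5 gene) by 0.48, Syne4 by 0.41 and Spag4 by 0.35, and 4 did not pass (limma), beside 23% of all regions higher. Syne4 and Spag4 were not called with quantile normalization (limma adjusted p = 0.0638 and 0.0703), nor was Spag4 without OPC library 10 (0.0518). Of 5 genes for lamin maturation 0 were called in limma, beside 33.9% of all regions, with 0.0886 the lowest adjusted p among these genes. Their levels ran from Fnta, a farnesyltransferase subunit, at −2.57 in OL and −2.42 in OPC to Zmpste24, the prelamin A protease, at −0.76 in OL and −0.66 in OPC.

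**Figure D4:**
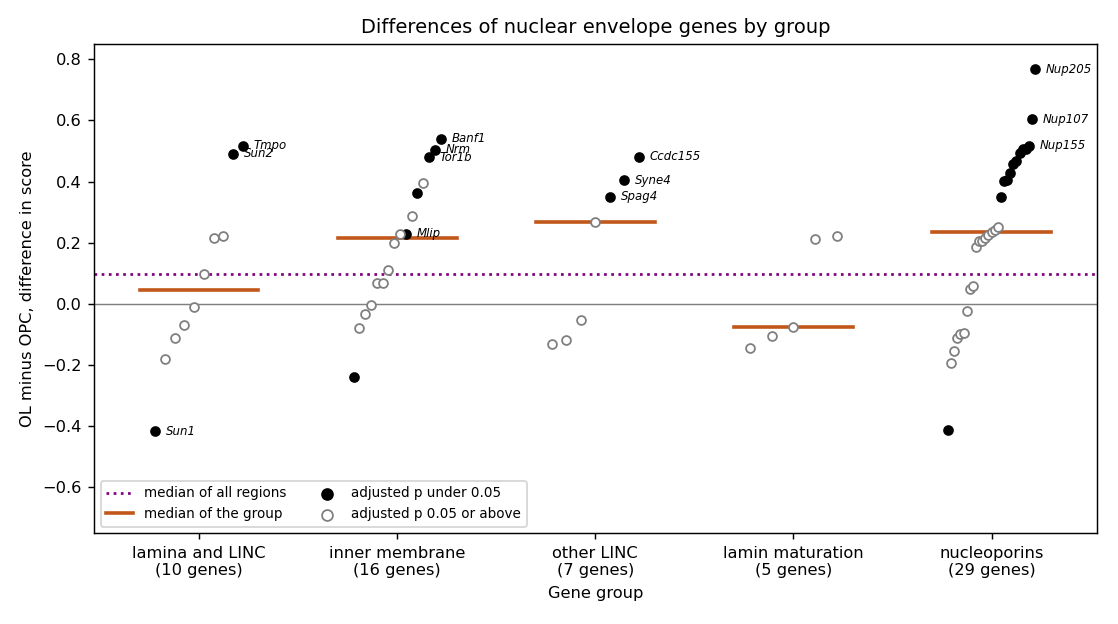
Difference in score (vertical axis, OL minus OPC, score units) of the 10 lamina and LINC genes and of 57 other envelope genes by group, filled where the limma adjusted p was under 0.05, with orange bars for group medians and a dotted line for the median of all regions. Nucleoporins hold 12 filled points above 0 and 1 below, and the lamina and LINC genes 2 above and 1 below.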

How the data were processed

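DamID-seq of 11 libraries was summarised by the authors as 1 table with a score per gene region and Dam-LMNB1 library, each against the pooled Dam libraries of its condition, per the file headers. The submitters' processing notes list cutadapt 1.9.1 and BWA 0.7.17, with mm10 as the build. How scores were made from reads is not given in these sources. The authors also deposited p-values and adjusted p-values for OL against OPC, and means per condition. Depth is unknown, so no counting interval was made.

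The deposited scores entered the model unchanged. It was fitted with limma 3.58.1 under R 4.3.3 over 21534 regions and 6 libraries, with 1 mean per condition and a variance trend, 9.42 total degrees of freedom, two-sided tests and Benjamini-Hochberg adjustment over all regions at 0.05. It was tested on simulated data with independent noise in each library, which held no error shared through the pooled Dam libraries. Coordinates are as deposited (mm10). For 7 of the 10 genes the region runs from 10000 bp before the annotated gene to 2000 bp past it, within 100 bp. Neighbours were the 10 nearest non-overlapping regions on each side; the Syne1 regions count among each other's neighbours. Names and promoter windows came from RefSeq (GRCm38.p6). Named among the other envelope genes were, per group, the highest and lowest mean score and up to 3 with the largest called difference. The members and lists were chosen with earlier results of these data known.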

Additional observations from a re-analysis of the deposited data

How the results depend on the processing

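Alternatives were 3 scalings of the libraries, limma without a variance trend, a Welch test per region, autosomal regions only, regions of at least 15000 bp, and leaving out each library. All 312 tests of a member region against 0 under these kept their direction and call. The 3 scalings kept the average level of the 6 libraries, and no alternative moved 0. These tests therefore could not show how far the calls depend on where the authors' scoring placed 0. Of 156 tests for OL minus OPC, 139 kept direction and call, 7 lost the call, 7 gained it and 3 changed sign. The changes of sign were in differences that were not called. Leaving out 1 library gave −0.068 to 0.073 for Lemd3 (above 0 without OL library 19 or OPC library 8) and −0.11 to 0.0064 for Lmnb1 (above 0 without OPC library 10). After scaling to 1 common mean and SD, with quantile normalization and with median centring, the members lower in OL numbered 3, 3 and 2 in place of 1, and the other envelope genes lower 6, 5 and 4 in place of 2. Over all 21534 regions the lower calls also rose under these scalings, to 3261, 3278 and 3333 in place of 2345. With the Welch test adjusted over all regions, 0 members were higher and 0 lower. Of the other envelope genes 2 were higher and 0 lower, beside 566 and 359 of all 21534 regions. The Welch adjusted p was 0.0576 and 0.0761 for the Tmpo regions, 0.105 for Sun2 and 0.169 for Sun1. That test estimates each region's spread from its own libraries alone. Leaving out 1 library gave 0 to 1 members lower, 2 to 3 higher, and 1 to 2 other envelope genes lower. Over all regions it gave 1673 to 2552 lower and 3136 to 4132 higher, in place of 2345 and 4963. With 5 neighbours on each side the median around the Syne1 regions turned to 0.39 (5′) and 0.0051 (3′), in place of −0.49 and −0.65 with 10, over all 6 libraries. Around Lmnb1, Tmpo, Lemd3 and Sun1 it moved to −2.06, −0.088, −1.75 and −1.76, in place of −1.82, −0.29, −1.40 and −1.61. The cause of these moves was not tested. No paired analysis was possible because OL and OPC share no replicate numbers. Depth being unknown, counting error could not be set beside any score.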
